A study of Mus musculus with 12 samples.

Results

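The subject is the set of genes that encode the proteins of the cytosolic ribosome, the particle that translates nuclear messenger RNA. Members were protein-coding genes whose symbol is Rpl or Rps followed by a number, with an optional suffix, or Rplp0, Rplp1, Rplp2 or Rpsa. The kinases named Rps6k were left out, and a mean of at least 1 CPM, counts scaled to library size, over the 12 libraries was required. The rule gave 81 genes of the 55401 gene IDs in the table, 49 of the large subunit and 32 of the small subunit. Of 84 candidates, 3 fell below the level: Rpl3l had a mean of 0.302 CPM, Rpl39l of 0.0504 and Rpl10l of 0.0211. Just above it stood Rps27l at 5.41 CPM, Rpl21 at 21.5 and Rpl36al at 26.1. All 81 members passed the filter on low counts and were tested.

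The tissue was medial prefrontal cortex (mPFC) of male mice. They had been through morphine or saline place conditioning (CPP) and 2 weeks of extinction, in which an animal stops seeking a chamber it had learned to link with the drug. All animals carried an adeno-associated virus (AAV). There were 3 groups of 4 libraries: a scramble virus with saline (replicates 2, 3, 4 and 5), a scramble virus with morphine (replicates 1, 3, 4 and 5) and a knockdown virus against 5-HT6R, a serotonin receptor, with morphine (replicates 1, 2, 3 and 5). There was no group with knockdown and saline, so the knockdown was compared only under morphine. The labels name neither the mouse strain and age nor the promoter of the viruses. They do not say that the libraries came from separate animals either, so the p-values reflect variation among samples that may be partly technical. Values below follow the replicate order just given.

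Total counts per library ran from 41483220 to 65739423. Markers of excitatory neurons of the cortex summed to between 4353 and 5738 CPM in every library. The 4 markers of choroid plexus and ependyma summed to between 4.31 and 9.62 CPM, with Folr1 under 0.1, and the 4 of T and B cells to between 8.25 and 21.5 CPM, with Ms4a1 under 0.1. Htr6, the gene of the targeted receptor, was measured at 6.17 ± 1.60 CPM (SD, n = 4) in the saline group, 5.21 ± 0.320 under scramble and morphine and 4.77 ± 0.763 with knockdown. The knockdown and scramble morphine libraries overlapped for it. Of all counts, the ribosomal RNA locus CT010467.1 took 4.57 ± 0.839%, 2.71 ± 0.292% and 6.46 ± 2.16% in the 3 groups. That locus reports RNA carried through poly(A) selection and not the members themselves.

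Most proteins of the cytosolic ribosome are needed in equal numbers, and their genes, spread over the genome, are among the most strongly transcribed in a cell. Most of these messenger RNAs start with a C followed by a run of pyrimidines, the 5′ terminal oligopyrimidine (TOP) motif. Through it the kinase mTOR and the binding protein LARP1 set how much of each message is translated or stored. In neurons the messages are found in dendrites and axons as well as in the cell body, and the proteins can join ribosomes there. An RNA level as measured here does not report translation.

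The start sequences are shown first because the TOP motif is the feature these messages are best known for. RefSeq promoter windows of 300 bases (250 before the annotated start and 50 from it on, build GRCm38.p6) matched 61 of the 81 members by symbol. A gene with several annotated starts was counted once, if any of its windows had the feature. Whether the annotated starts are those in use in this tissue was not tested. A C at the annotated start with at least 4 pyrimidines after it was found in 13 of the 61 (21.3%), against 3.01% of all 27025 genes in the table. Within 5 bases of the annotated start the shares were 47.5% and 21.2%, and within 10 bases 59% and 34.4%. Below are 15 bases before and 15 from the start for the 5 longest runs and for Rpl28, which the results return to, with the pyrimidine run in capitals. Rpl15 lies at chr14:18270972-18271001 (minus strand), Rpl35 at chr2:39005117-39005146 (minus strand) and Rps10 at chr17:27635230-27635259 (minus strand). Rps18 lies at chr17:33955651-33955680 (minus strand), Rps6 at chr4:86857353-86857382 (minus strand) and Rpl28 at chr7:4792950-4792979 (plus strand).
Rpl15: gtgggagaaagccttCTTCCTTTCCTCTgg
Rpl35: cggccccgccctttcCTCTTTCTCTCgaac
Rps10: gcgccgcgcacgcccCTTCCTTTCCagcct
Rps18: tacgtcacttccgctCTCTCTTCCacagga
Rps6: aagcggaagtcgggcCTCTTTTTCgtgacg
Rpl28: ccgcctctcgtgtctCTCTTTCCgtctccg
The longest run, of 13 bases, was that of Rpl15, and Rps6, the classical S6 kinase substrate of the small subunit, had a run of 9. Words counted on both strands of the same windows, with overlaps allowed, were also found at other shares in the members than in all genes. CCGGAAG, the core of ETS factor sites, was in 41% of members and 9.93% of all genes, and CCGCCC, a GC box, in 63.9% and 38.2%. ATGGCG was in 31.1% and 10.2%, and the TATA word TATAAA in 11.5% and 15.7%. A match describes the letters of a window and not a bound site.

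Levels between genes were compared per kilobase of annotated transcript (RPKM, using the shortest of the best supported GENCODE M21 coding transcripts). The median member stood at 116 RPKM and the quartiles at 79.1 and 157. Large and small subunit members had like medians, 112 and 123 RPKM. The highest were Rplp1, an acidic stalk protein, at 394 RPKM, Rps15 at 358, Rps14 at 296, Rpl3, which lines the peptidyl transferase centre, at 273, and Rpl41 at 242. The lowest were Rps27l at 10.8 RPKM, Rpl7l1 at 15, Rps20 at 16.6, Rps15a at 18.9 and Rpl21 at 23.9, which made a 36.4-fold spread. The annotated transcripts of Rps15a and Rps20 are 5130 and 3706 bases long, against a median of 761 over the members, and this length enters their RPKM directly. By CPM Rps15a stood at 97, above the median member at 89, and Rps20 at 61.5. The annotated transcript of Rpl7l1 is also long, at 2606 bases, and its mean was 39.2 CPM. Rpl21 had 21.5 CPM on its own counts, while its 62 near-identical copies, described below, summed to 163 CPM. Its low place is therefore uncertain. Neighbours in the order of levels mostly overlapped over the 12 libraries.

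**Figure D1:**
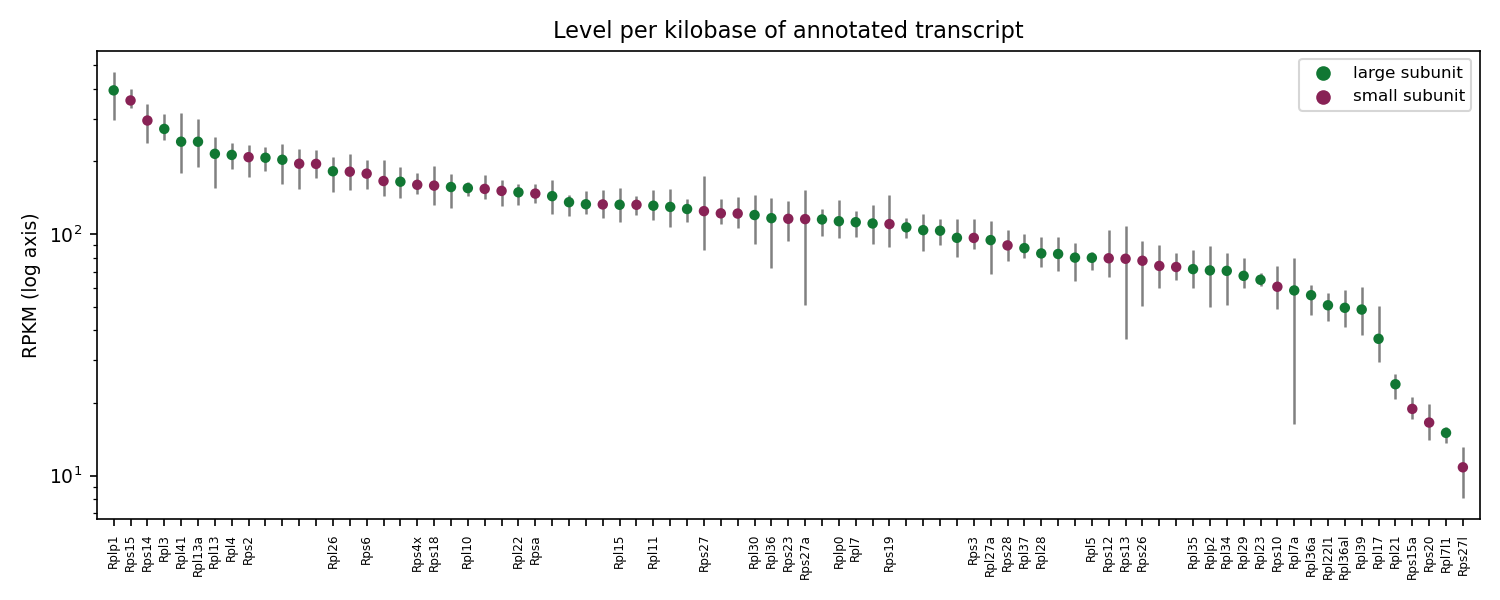
Level of each of the 81 members per kilobase of annotated transcript (RPKM, log axis), ordered by the mean of 12 libraries; points are means, bars run from the lowest to the highest library, and colour gives the subunit; members described in the text are named. Most members lie within a narrow band, and Rplp1 at 394 and Rps27l at 10.8 RPKM mark the ends.

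Paralogs stood well below their parent genes where the pair differs in tissue use. Rpl3l, known from heart and skeletal muscle, had between 7 and 30 counts per library beside a mean of 369 CPM for Rpl3. Rpl10l and Rpl39l, known from testis, had 0 counts in 11 and in 9 of the 12 libraries, where a count of 0 allows up to 3. Their parents Rpl10 and Rpl39 had means of 124 and 29.8 CPM. Per length, Rpl7l1 stood at 15 RPKM beside 112 for Rpl7, Rpl22l1 at 50.8 beside 149 for Rpl22, and Rps27l at 10.8 beside 125 for Rps27. Rpl36a and Rpl36al were the one pair at like levels, 55.9 and 49.6 RPKM. Rps4l is annotated as a pseudogene and was not a member.

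The members together took 0.868, 0.806, 0.958 and 0.760% of counts in the saline libraries. They took 0.893, 0.845, 0.737 and 0.795% with scramble and morphine, and 0.873, 0.795, 0.847 and 0.759% with knockdown. The group means were 0.848% ± 0.0856, 0.817% ± 0.0668 and 0.818% ± 0.0511 (SD, n = 4), so the groups overlapped and differed by less than the spread within them. Of protein-coding counts alone the shares were 0.930% ± 0.0855, 0.878% ± 0.0721 and 0.920% ± 0.0730. The summed CPM of the large subunit was between 1.46 and 1.55 times that of the small subunit in every library.

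**Figure D2:**
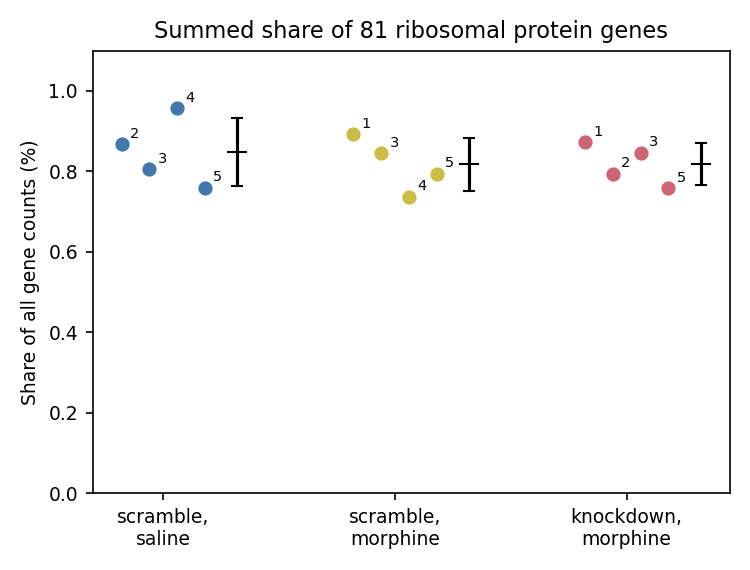
Summed share of all gene counts (%) taken by the 81 members in each library, numbered by replicate, with the group mean and SD as bars. Saline replicate 4 at 0.958% is the highest library and scramble morphine replicate 4 at 0.737% the lowest, and the 3 groups overlap.

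The libraries moved the members up and down together. Of the 81 members, 73 (90.1%) had their highest saline level in replicate 4 and 61 (75.3%) their lowest in replicate 5. For the 12145 tested genes at least as abundant as the lowest member, these shares were 32.8% and 27.9%. With scramble and morphine 59 members were highest in replicate 1 and 63 lowest in replicate 4 (72.8 and 77.8%, against 23 and 28.7% of those genes). Scramble morphine replicate 4 had the lowest total count of the 12. With knockdown 53 were highest in replicate 1 and 60 lowest in replicate 5 (65.4 and 74.1%, against 20.7 and 31.3%). A single component took 55.2% of the members' variance within groups. The same share was 32.2% for the 78 mitochondrial ribosomal protein genes, 38.5% for 75 genes of ribosome biogenesis, 40.4% for 56 translation factors, 52.4% for 29 genes of mTOR signalling and TOP regulation and 87.9% for 3 other ribosome-bound proteins. A short list gives a high share more easily, which bears on the lists of 29 and 3 genes. The lists of 78 and 75 genes are close to the 81 members in length, and their shares were lower. The difference in shares was not tested. The members' median within-group SD was 0.14 on the log2 scale and that of those 12145 genes 0.13.

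**Figure D3:**
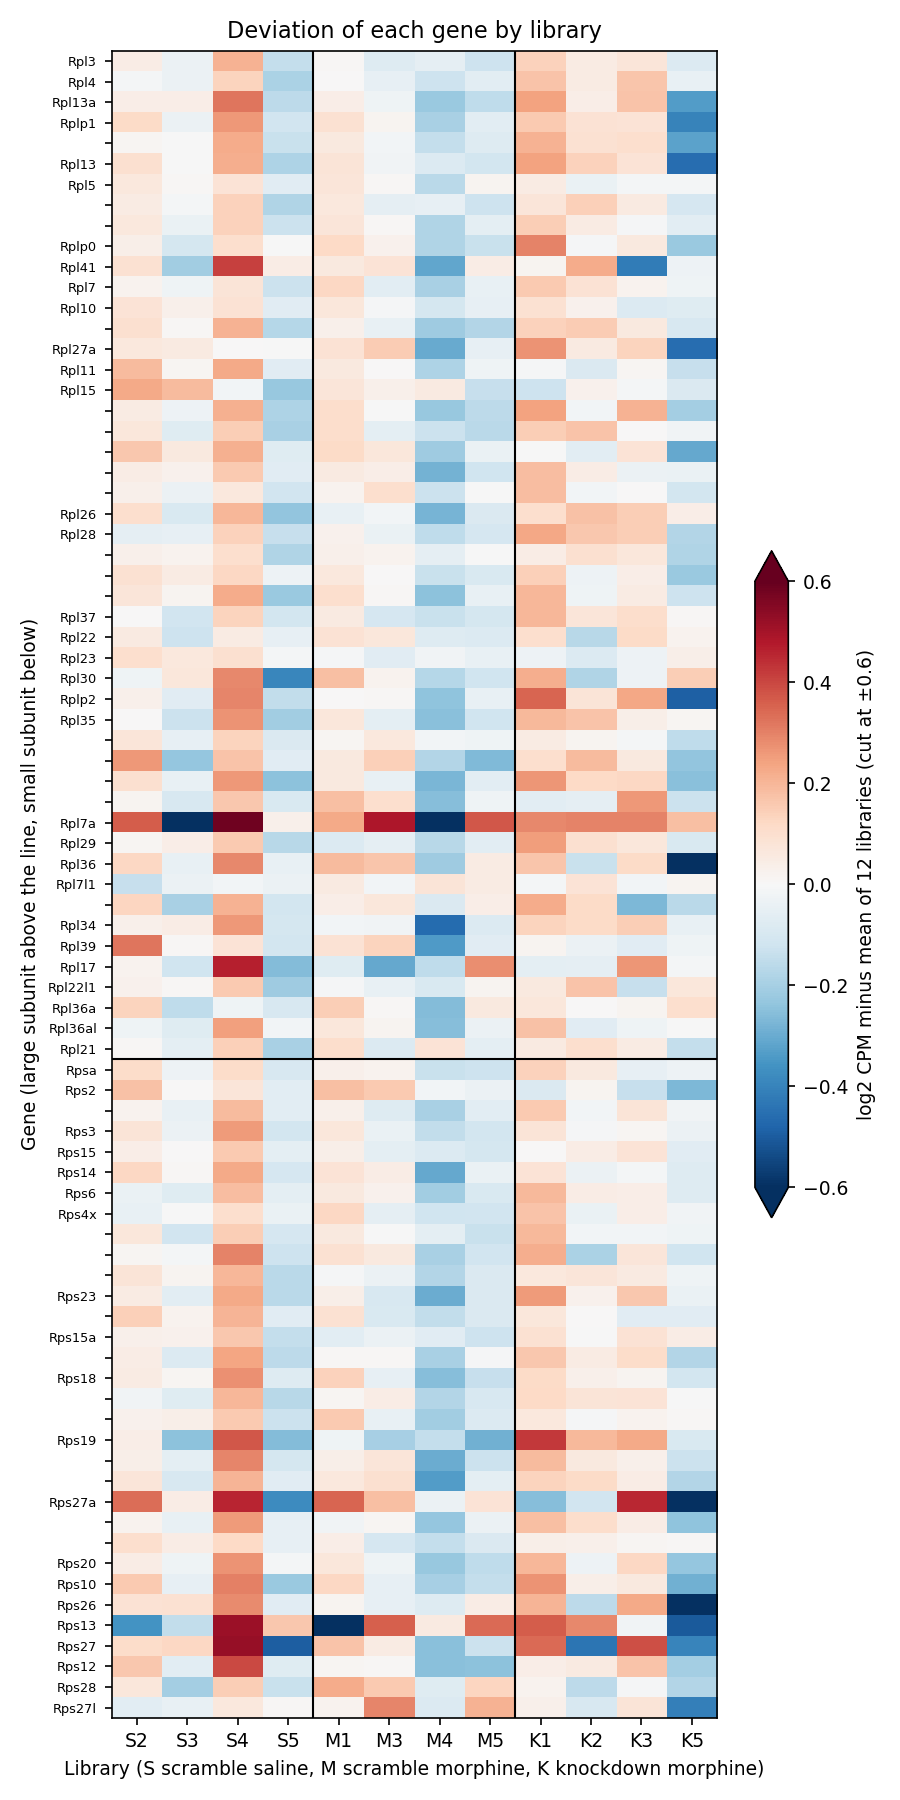
log2 CPM of each member minus its mean over the 12 libraries, in colour (cut at ±0.6); columns are libraries by group and replicate, and rows are members by subunit, from abundant to rare, with names for those described in the text. The column of saline replicate 4 is red for nearly all rows, and those of saline 5 and scramble morphine 4 are mostly blue. Rpl7a, Rps13 and Rps27a vary more between libraries than the other rows.

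Knockdown replicate 5 was low unevenly over the members. Against the mean of the other 3 knockdown libraries, the log2 difference there was -0.71 for Rpl36, -0.71 for Rplp2, -0.70 for Rps26, -0.61 for Rpl13 and -0.61 for Rpl27a. Rps27a and Rps13 had -1.15 and -0.72. The members just listed are proteins of both subunits, and Rplp2 is a stalk protein. Near-identical copies had mean sums of 28.0 CPM for Rps27a and 14.4 for Rps13, but also 31.2 for Rpl13 and 13.5 for Rpl27a. For Rpl36, Rps26 and Rplp2 these were 2.27, 2.56 and 0.01. Gene and copies together stood at 45.4 CPM for Rps13 in knockdown replicate 5, its lowest of the 12 libraries, and at 90.9 for Rps27a. Rpl36 stood at 49.5, 40.1, 47.6 and 27.8 CPM with knockdown, and between 38 and 53.9 in the 8 scramble libraries. In the same library Rpl30 was higher by 0.15 and Rpl23 by 0.08. Members just named were chosen after their values were seen.

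A few members varied far more than the rest: Rpl7a, Rps13, Rps27a and Rps27 had within-group SDs of 0.79, 0.50, 0.44 and 0.37 on the log2 scale. Like nearly all members, they have near-identical copies elsewhere in the genome. Ribosomal protein genes have given rise to many processed pseudogenes, intronless copies made from the messenger RNA. A search of the annotated transcripts found 627 copies of 79 members, with at least 95% identity over at least 75 bases and covering 80% of the copy or 50% of the member. Of them 601 were annotated as pseudogenes of any kind, and Rps27l was among the members with no copy. Counts were listed for the copies too: 152 had at least 1 CPM, and the sum of all 627 was 15.3% of the members' own CPM. For Rpl21, Rpl17 and Rpl7a the copies together were above the gene itself, by 7.59, 3.47 and 2.45 times. How reads that fit several places were counted is not given in the sources used here, so a member's own count is uncertain to that extent.

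Sequence shows how little separates the genes from these copies. Rps27a, which encodes ubiquitin fused to a small subunit protein, lies at chr11:29545846-29548109 on the minus strand, and its pseudogene Rps27a-ps2 at chr9:83409660-83410126 on the plus strand (mm10). Their 467 aligned bases differ at 1 position, A507G, and 225 of 318 stretches of 150 bases, the read length, are identical. In such a token the member's base comes first, then its position from the 5′ end of the member's transcript, then the copy's base. The 41 coding bases around it are shown, with the differing base in capitals.
Rps27a: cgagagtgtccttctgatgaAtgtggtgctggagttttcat
Rps27a-ps2: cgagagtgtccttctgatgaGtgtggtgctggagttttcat
Rpl7a, a large subunit protein gene at chr2:26910764-26913318 on the plus strand, differs from the pseudogene Gm8226 at chr9:84423984-84424781 at 2 of 798 positions, A250G and A811C. The first is shown in the same way.
Rpl7a: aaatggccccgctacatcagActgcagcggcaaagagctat
Gm8226: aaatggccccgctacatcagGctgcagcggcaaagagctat
For that pair 447 of 649 stretches of the read length are identical. The coding sequence of Rps13 is the same as that of Rps13-ps2 over all 453 aligned bases, so reads lying wholly within it are identical.

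The own counts of Rps27a, Rps13 and Rpl7a were lowest in the library where those of their copies were highest. Rpl21 and Rpl17 did not show this. In saline replicate 4 both gene and copies were at their highest, at 23.7 and 189 CPM for Rpl21 and 39.0 and 122 for Rpl17. Rps27a stood at 89.2, 73.1, 97.2 and 54.4 CPM with saline, 90.3, 80.1, 69.1 and 75 under scramble and morphine, and 59.3, 65.5, 97 and 32.5 with knockdown. Its 10 copies summed to 19.3, 27, 24.9 and 39.1 CPM with saline, 12.5, 17.9, 19.3 and 18.9 under scramble and morphine, and 54.8, 33.8, 12.5 and 58.5 with knockdown. The libraries low in the gene, saline 5 and knockdown 1 and 5, were those highest in the copies. Gene and copies together ran only from 88.4 to 122 CPM, against 32.5 to 97.2 for the gene alone. For knockdown against scramble under morphine the log2 fold change of Rps27a was -0.31 (SE 0.29) on its own counts and 0.12 with the copies added, a change of sign; neither passed the test (adjusted p = 0.721 and 0.632).

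Rps13, a small subunit protein, was lowest in scramble morphine replicate 1, at 21.7 CPM, where Rps13-ps1 and Rps13-ps2 stood at 21.3 and 21.1. In the other 11 libraries Rps13 ran from 31.5 to 63.8 CPM. Rpl7a stood at 15 CPM in saline replicate 3 and 18.2 in scramble morphine replicate 4, and between 49.7 and 73.1 elsewhere. Its 37 copies were highest in those same libraries, at 158 and 157 CPM, against at most 140.4 elsewhere. Rpl41, whose product is the smallest ribosomal protein, was lowest in knockdown replicate 3, at 97.2 CPM, where its copy Gm10076 was at 32.5. Gm10076 is annotated as a long noncoding RNA. Unlike in the pairs above, only 1 of 211 stretches of the read length is identical between it and Rpl41. Adding the copies lowered the within-group SD of 63 of the 81 members. The largest SD, that of Rpl7a, went from 0.79 to 0.10 on the log2 scale, that of Rps13 from 0.50 to 0.17 and that of Rps27a from 0.44 to 0.14. That of Rps27 fell less, from 0.37 to 0.26. The median over members went from 0.14 to 0.12.

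**Figure D4:**
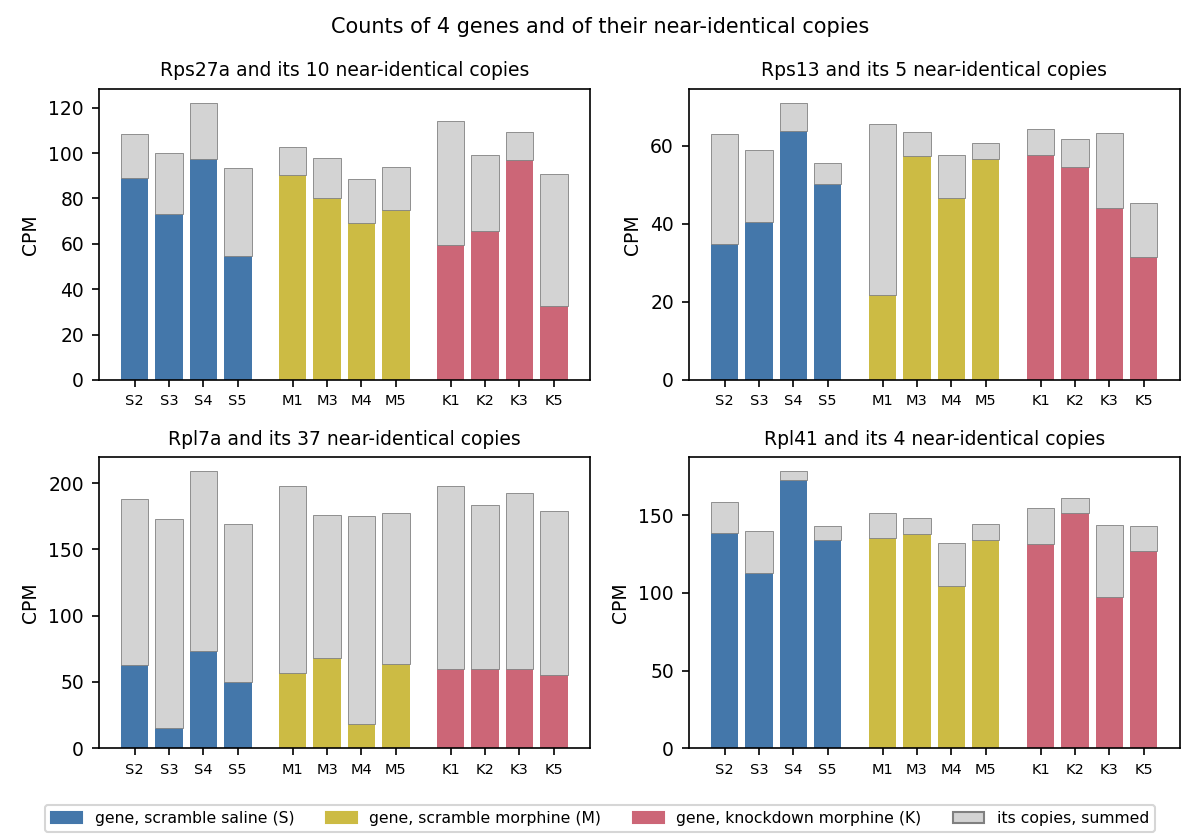
CPM of Rps27a, Rps13, Rpl7a and Rpl41 in each library (coloured bars, by group) with the summed CPM of their near-identical copies stacked on top in grey. Where the coloured part is short, as for Rpl7a in saline 3 and scramble morphine 4, the grey part is tall, and the stacks are more even than the genes alone.

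The first comparison asked what morphine, with its conditioning and extinction, changed under the scramble virus. No member passed the test at an adjusted p of 0.05 (0 of 81, edgeR), and 0% of the 21958 genes tested did. DESeq2 and limma also called 0 members. At an unadjusted p under 0.05 there was 1 member against 3.48% of all genes; by direction it was 0 higher and 1 lower, against 1.67 and 1.82%. Without overlap between the groups 0 members were higher and 0 lower, against 1.55 and 1.77% of all genes. The median member had a log2 fold change of -0.08, with 12 of 81 above 0, where all genes had a median of 0.00 and 49.5% above 0. Members moved together between libraries of a group, so they are not 81 independent values here. With 1 library left out the median lay between -0.13 (without saline replicate 5) and -0.02 (without saline replicate 4). The number of members above 0 then ran from 5 (without scramble morphine replicate 1 or 3) to 32 (without saline replicate 4), and the number at an unadjusted p under 0.05 from 0 to 9 (without saline replicate 5). Large and small subunit medians were -0.06 and -0.10. The 95% interval of the fold change lay within 1.25-fold either way for 56 members, within 1.5-fold for 77 and within 2-fold for 80, all but Rpl7a.

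Rps12, a small subunit protein, had the lowest log2 fold change of that comparison, -0.23 (SE 0.11, adjusted p = 0.999, edgeR). It stood at 43.5, 37.3, 51.3 and 37 CPM with saline, 39.3, 39.2, 32.7 and 32.8 under scramble and morphine, and 40.0, 40.4, 43.9 and 33.8 with knockdown. The saline and morphine ranges overlapped. At the other end Rps28 had 0.14 (SE 0.09) and Rps27l 0.13 (SE 0.14), with adjusted p-values of 0.999 for both. With its near-identical copies added, Rps28 had 0.02 (SE 0.07).

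The second comparison asked what the receptor knockdown changed in mice given morphine. It shares the scramble morphine libraries with the first, so a low level there enters the 2 comparisons with opposite sign. Again 0 of 81 members and 0% of the 21958 genes passed the test (edgeR), and DESeq2 and limma called 0 members. The median member had a log2 fold change of 0.07, with 68 of 81 above 0, against a median of 0.00 and 50.7% above 0 over all genes. With libraries scaled by their totals alone, 43 of 81 were above 0 and the median was 0.00. Large and small subunit medians were 0.07 and 0.08. At an unadjusted p under 0.05 there were 7 members (8.64%), 6 higher and 1 lower, and 12% of all genes, 5.87% higher and 6.17% lower. The interval lay within 1.25-fold for 52 members, within 1.5-fold for 77 and within 2-fold for 80.

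Rps19, a small subunit protein whose human gene is the one most often mutated in Diamond-Blackfan anaemia, had the highest fold change. It stood at 86.5, 70.9, 109 and 70.1 CPM with saline, 82.5, 73.1, 76.1 and 68.8 under scramble and morphine, and 113, 96, 98.5 and 78.8 with knockdown. The knockdown libraries were above the scramble morphine ones except for replicate 5 at 78.8, below the highest scramble morphine library at 82.5. The log2 fold change was 0.36 (SE 0.13, interval 1.05 to 1.57-fold, unadjusted p = 0.018, adjusted p = 0.341, edgeR). Saline replicate 4, at 109 CPM, was as high as the upper knockdown libraries.

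Rpl26, a large subunit protein that is also known to bind p53 messenger RNA, stood at 102, 89.5, 109.6 and 81 CPM with saline, 92.4, 94.2, 78.5 and 89.7 under scramble and morphine, and 102, 108, 105 and 98.1 with knockdown. All 4 knockdown libraries lay above all 4 scramble morphine libraries, with a log2 fold change of 0.22 (SE 0.09, adjusted p = 0.357, edgeR). Rps15a was likewise higher without overlap, at 92.1 ± 2.38 CPM with scramble and 101 ± 2.99 with knockdown (SD, n = 4), and its log2 fold change was 0.13 (SE 0.06). These 2 of 81 members (2.47%) stand beside 2.59% of all genes that were higher in knockdown without overlap, and 0 members were lower without overlap, against 3.26%. Rps2, which sits at the messenger RNA entry of the small subunit, ran the other way. It stood at 234, 208, 218 and 198 CPM with saline, 234, 231, 205 and 202 under scramble and morphine, and 195, 209.7, 188 and 172 with knockdown. Its log2 fold change was -0.19 (SE 0.08, unadjusted p = 0.0233, adjusted p = 0.359, edgeR), and knockdown replicate 2 lay among the scramble libraries. With its 26 near-identical copies added, Rps2 had -0.13 (SE 0.07, adjusted p = 0.499, edgeR).

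The other members with an unadjusted p under 0.05 were Rpl37, Rps23, Rpl29 and Rpl34, all higher with knockdown, by log2 fold changes of 0.17, 0.21, 0.18 and 0.22. Their adjusted p-values ran from 0.369 to 0.399 (edgeR). With near-identical copies added these were 0.17, 0.21, 0.14 and 0.22 on the log2 scale. The median and the numbers of members above 0 or at an unadjusted p under 0.05 depended on single libraries. Without knockdown replicate 1 the median was 0.03, with 51 members above 0 and 3 at an unadjusted p under 0.05, and without scramble morphine replicate 4 it was 0.04, with 52 and 3. Without knockdown replicate 5 it was 0.12, with 71 and 15, and the smallest adjusted p was 0.0758, that of Rpl28. Rpl28, shown above with its TOP start, stood at 88.4, 88.6, 101 and 83.4 CPM with saline, 93.3, 89.2, 82.5 and 85.6 under scramble and morphine, and 108, 102, 102 and 81.3 with knockdown. Its log2 fold change with all libraries was 0.16 (SE 0.08, adjusted p = 0.450). The 13 members with a pyrimidine run at the annotated start had a median log2 fold change of 0.09 here and the 48 others with a promoter entry 0.06, while for morphine against saline both medians were -0.08.

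The third comparison set knockdown with morphine against scramble with saline, so virus and drug both differed. It shares its libraries with the first 2 comparisons and adds no independent evidence. No member passed (0 of 81, against 3 genes or 0.0137% of all, edgeR), nor did any by DESeq2 or limma. The median log2 fold change was 0.00, with 39 of 81 above 0, and with libraries scaled by totals -0.05, with 15 above 0. At an unadjusted p under 0.05 there was 1 member, Rps2, and 9.35% of all genes; it was lower, as were 4.37% of all genes, while 4.97% were higher. Rps2 had a log2 fold change of -0.17 (SE 0.08, adjusted p = 0.522, edgeR), and -0.16 (SE 0.07) with its copies added. Rpl7l1 was higher in all 4 knockdown libraries than in any saline one, 1 of 81 members against 2.18% of all genes, and 0 members were lower in this way, against 2.16%. It stood at 35.6, 38.2, 38.7 and 38.2 CPM with saline, 40.6, 38.7, 41.3 and 40.5 under scramble and morphine, and 38.8, 41.5, 38.8 and 39.6 with knockdown, a log2 fold change of only 0.07 (SE 0.06). Without saline replicate 4 the median turned to 0.06, with 62 members above 0 and 6 at an unadjusted p under 0.05. Without saline replicate 5 it was -0.04, with 19 and 4. The interval lay within 1.25-fold for 66 members, within 1.5-fold for 77 and within 2-fold for 80.

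**Figure D5:**
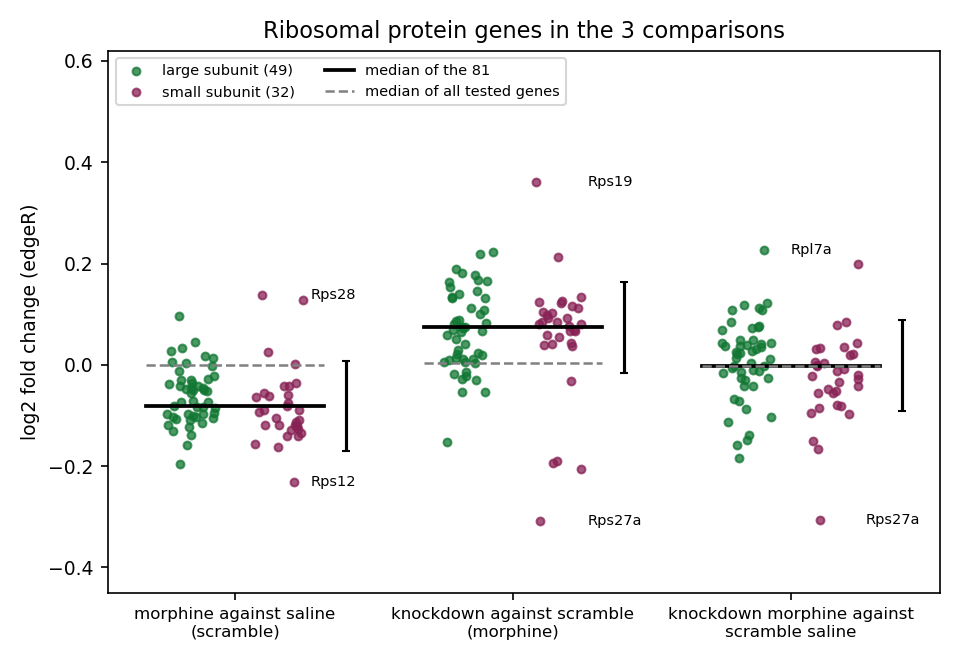
log2 fold change (edgeR) of each member in the 3 comparisons, with the large subunit in green and the small in purple; black lines are the members' medians, dashed lines those of all tested genes, and the bar at the right is the median SE either side of the members' median. The cloud lies a little below 0 for morphine, a little above for knockdown under morphine and around 0 for the third, by about 1 SE of a single gene.

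By role, the stalk that recruits elongation factors gave one of the wider spreads. Rplp0, its base, stood at 157, 142, 164 and 153 CPM with saline, 166, 156, 135 and 139 under scramble and morphine, and 188, 152, 159.5 and 131 with knockdown. Rplp1 had means of 204 ± 23.8, 191 ± 16.1 and 195 ± 31.7 CPM (SD, n = 4) in the 3 groups, and Rplp2 of 69.2 ± 9.52, 64.4 ± 4.96 and 71.1 ± 16.5. Groups overlapped for all 3, and their adjusted p-values ran from 0.754 upwards. Rpl5 and Rpl11 form with 5S ribosomal RNA the particle that also binds Mdm2 when assembly fails. Rpl5 was among the steadiest members, with 166 ± 7.74, 161 ± 10.9 and 163 ± 4.24 CPM. Rpl11 had 116 ± 11.3, 106 ± 7.59 and 105 ± 5.17 CPM, a log2 fold change of -0.13 (SE 0.07) for morphine and -0.15 (SE 0.07) for the third comparison.

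Among proteins at functional sites of the large subunit, Rpl3, Rpl4 of the peptide exit tunnel, and Rpl10, joined late near the catalytic centre, were abundant and even. Rpl3 had 374 ± 38.6, 352 ± 13.6 and 379.5 ± 23.7 CPM and Rpl10 127 ± 6.30, 122 ± 6.27 and 123 ± 7.04. Rpl4 stood at 324, 319, 358 and 287 CPM with saline, 327, 315, 300.0 and 313 under scramble and morphine, and 367, 338, 366 and 316 with knockdown. Its knockdown and scramble ranges overlapped in part, with a log2 fold change of 0.15 (SE 0.07, adjusted p = 0.435, edgeR). In the small subunit, Rps6, whose phosphorylation is a standard readout of mTOR activity, stood at 152, 149, 178 and 149.9 CPM with saline, 162, 159, 135 and 146 under scramble and morphine, and 178, 161, 160.4 and 148 with knockdown. Only the RNA was measured, so its phosphorylation is not reported. Rpsa, also a laminin receptor, had 239 ± 17.3, 227 ± 14 and 240.1 ± 14.6 CPM, and Rps3, also a DNA repair protein, 191 ± 21.7, 177 ± 11.8 and 185 ± 6.05. None of these members was called in any of the 3 comparisons.

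In the expressed paralog pairs no gene was called. For knockdown against scramble the log2 fold changes were 0.02 (SE 0.07) for Rpl22 and 0.07 (SE 0.09) for Rpl22l1, 0.05 and 0.07 for Rpl36a and Rpl36al, and 0.10 and -0.02 for Rpl7 and Rpl7l1. Rps27, one of the most variable members, had 0.05 (SE 0.24) and Rps27l -0.21 (SE 0.14). With its copies added Rps27 had 0.19 (SE 0.16). Signs differed in the last 2 pairs, and differences within pairs were not tested. Rps4x, the X-linked gene of its protein, had 156 ± 7.33, 152 ± 12.3 and 160.2 ± 10.7 CPM.

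Genes that work with the ribosomal proteins were read from fixed lists. Fau, which encodes a ribosomal protein fused to a ubiquitin-like protein, and Rack1, a scaffold on the small subunit, were outside the symbol rule. Rack1 stood at 129, 116, 108 and 121 CPM with saline, 129, 115, 116 and 116 under scramble and morphine, and 110.2, 107, 99.6 and 116 with knockdown, a log2 fold change of -0.13 (SE 0.07, adjusted p = 0.447) for knockdown against scramble. Of 78 mitochondrial ribosomal protein genes, which serve the separate ribosome of mitochondria, 0 passed in any comparison. Their median under knockdown against scramble was -0.12, with 70 of 78 below 0 beside 0.07 for the cytosolic members and 50.7% above 0 over all genes. At an unadjusted p under 0.05 there were 19 of the 78, against 12% of all genes in either direction. Mrpl13 had -0.37 (SE 0.09, adjusted p = 0.264), Mrpl3 -0.27 (SE 0.07) and Mrpl39 -0.35 (SE 0.09). The summed CPM of this list was 1647 ± 51.1, 1687 ± 30.5 and 1548 ± 80.6 in the 3 groups. The difference between the lists was not tested.

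Of 75 genes of ribosome biogenesis and RNA polymerase I, 0 passed in any comparison. For knockdown against scramble their median was -0.09, with 58 below 0, and 14 of the 75 had an unadjusted p under 0.05, against 12% of all genes. Eif6, which keeps new large subunits from joining early, had a log2 fold change of -0.26 (SE 0.08, adjusted p = 0.291), and Pno1, a small subunit assembly factor, -0.64 (SE 0.21, adjusted p = 0.315). Of 56 translation factors 0 passed, with a median of -0.03. Eef1g, an elongation factor whose message carries a TOP motif, had 0.20 (SE 0.08, adjusted p = 0.349), and Eif1b -0.25 (SE 0.07, adjusted p = 0.271). Of 29 genes of mTOR signalling and TOP regulation 0 passed, with a median of 0.00. Larp1, the TOP binding protein, had 0.23 (SE 0.08, adjusted p = 0.324) and Eif4ebp2, an mTOR target that blocks cap binding, 0.24 (SE 0.07, adjusted p = 0.285). For morphine against saline 0 genes of these lists passed either, and their medians were 0.03, 0.02, 0.01 and -0.01 for mitochondrial ribosome, biogenesis, factors and mTOR.

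Markers of other cell types are given beside these values, first for knockdown against scramble. The 6 oligodendrocyte markers, all above 1 CPM, summed to between 1784 and 2436 CPM with scramble and morphine and between 1143 and 1962 with knockdown, and 0 of 6 had a log2 fold change above 0 (median -0.32). The 6 markers of pericytes and meninges summed to between 178 and 237 CPM and between 222 and 321, with 6 of 6 above 0 (median 0.39). The 4 endothelial markers were all above 0 (median 0.28), as were the 4 of T and B cells (0.54) and the 5 of blood (0.13). Of the 5 microglia markers 1 was above 0 (median -0.25). Only 1 of the 4 T and B cell markers had a mean of at least 1 CPM, so their medians rest on low counts. For morphine against saline the 5 blood markers were all below 0 (median -0.73), with sums between 96.9 and 415 CPM with saline and between 118 and 187 under scramble and morphine. In that comparison the 4 of T and B cells (median -0.44) and the 4 of endothelium (-0.12) were below 0 too, while the 6 of pericytes and meninges (0.28) and the 5 of astrocytes (0.19) were all above it. In bulk tissue fewer cells of a type and less RNA per cell cannot be told apart. The part of these cells in the members' values was not tested. With the ribosomal RNA share as a covariate the members' median for knockdown against scramble was 0.03, with 54 of 81 above 0, and 0 were called. That share ran from 2.38 to 3.04% with scramble and morphine and from 4.57 to 9.38% with knockdown, without overlap. The covariate can therefore take up part of the group difference itself.

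A feature of gene structure that the rule did not use was more frequent among members than among other genes. Of 81 members, 30 (37%) hold a small nucleolar RNA gene inside them, 58 such genes in all, against 210 of 15886 other tested protein-coding genes (1.32%). These small RNAs guide chemical marks on ribosomal RNA and are cut from introns. Rpl4 holds 5 and Rpl13a 4. The 30 hosts had a median log2 fold change of -0.07 for morphine and 0.07 for knockdown under morphine, like the members as a whole. The members lie on 19 chromosomes, with 14 on chromosome 7 and 4 on the X. For 23 members a gene overlaps on the other strand. The libraries mark the strand, but whether the counting used it is not given in the sources used here, so counts of these 23 may hold reads of the partner gene.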

How the data were processed

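The authors deposited one table of counts, whole numbers by gene and library, from poly(A)-selected RNA read in pairs. Per the submitters' processing notes the tools included StringTie 1.3.4d, HISAT2 2.0.4 and cutadapt 1.9, next to edgeR and DESeq2, and the build was mm10; their roles are not stated. The annotation, the use of strand and the counting of reads that fit several places are not given in the sources at hand, and the counts may be estimates from StringTie. This bears on members with near-identical copies.

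Of 55401 gene IDs, 260 matched no symbol and held at most 0.0275% of counts. Counts were fitted with edgeR 4.0.16 (R 4.3.3; TMM scaling, filterByExpr with a minimum of 10 counts, robust quasi-likelihood test, 1 mean per group, 9 residual degrees of freedom) over 21958 genes and all 12 libraries. P-values are two-sided, adjusted over all genes by the Benjamini-Hochberg method at 0.05. CPM uses TMM-scaled totals. Copies were sought with blastn 2.17.0 in GENCODE mouse release M21, which uses the mm10 assembly.

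Named in each comparison were the 6 highest and 6 lowest members, fixed members by role, paralogs, and the 5 highest and 5 lowest per length; a subset is described. Members and lists were chosen with earlier results of these data known. Alternatives were other scalings, filters, DESeq2 1.42.0, limma 3.58.1, covariates, a replicate block and left-out libraries; adding the copies was chosen after seeing the data. The steps were tested on simulated counts. A few genes are not reported by name here.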

Additional observations from a re-analysis of the deposited data

Results flagged for a closer look

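Of 123 groups of 4 libraries checked for 40 named members and the summed share, 6 had a library far from the other 3; chance gives about 1 in 20. Rpl34 stood at 24.4 CPM in scramble morphine replicate 4, with the others between 31.8 and 33.2. Rpl37 stood at 75.7 CPM in scramble morphine replicate 1, with the others between 66.4 and 68.0. In saline replicate 4, Rpl36al stood at 30.8 CPM (others 24.7 to 25.6) and Rps6 at 178 (others 149 to 152). In knockdown replicate 5, Rplp1 stood at 148 CPM (others 206 to 218) and Rpl7a at 55.2 (others 59.5 to 59.9). These are the libraries in which most members were highest or lowest of their group. The Rpl7a value is small in absolute terms, because the other 3 libraries were nearly equal.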

How the results depend on the processing

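In each comparison 0 members were called under the 24 alternatives (scalings, filters, tools, covariates, left-out libraries, added copies) and under the literal symbol rule. The smallest adjusted p was 0.704 for morphine (limma), 0.0758 for knockdown under morphine and 0.180 for the third comparison (both for Rpl28 without knockdown replicate 5). With 1 library left out, the median log2 fold change of the members ran from -0.13 to -0.02, from 0.03 to 0.12 and from -0.042 to 0.062. That of the third comparison was near 0 (-0.002), and its changes of sign that reached 0.05 were to 0.062 without saline replicate 4, to 0.061 also without knockdown replicate 3, and to 0.050 with limma; the cause was not tested. Members at an unadjusted p under 0.05, 1, 7 and 1 in the 3 comparisons, ran over these alternatives from 0 to 9 (without saline replicate 5), from 1 (ribosomal RNA share as covariate) to 15 (without knockdown replicate 5) and from 0 to 6 (without saline replicate 4). In the second comparison they were 3 without knockdown replicate 1 or scramble morphine replicate 3 or 4, and under library totals. Under library totals the members above 0 went from 68 to 43 and from 39 to 15 of 81 in the second and the third comparison.

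Of named members whose log2 fold change was larger than its SE, 2 changed sign, both for knockdown against scramble. Rps27a went from -0.31 to 0.038 with the ribosomal RNA share as a covariate and to 0.12 with its copies, and Rpsa from 0.08 to -0.0095 with that covariate. The ribosomal RNA share did not overlap between the knockdown and scramble morphine groups, so it can take up part of their difference. The summed share was 0.706, 0.680 and 0.681% without the 5 most abundant members, by construction, and 0.920% of protein-coding counts with knockdown.

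With the replicate number as a replicate block 0 members were called, and the medians were -0.10, 0.08 and -0.03. Same-numbered libraries deviated together only weakly (correlations across genes from -0.02 to 0.13), so the numbers were not taken to pair the samples. The lowest count of any member in a library was 202, for Rps27l.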
